A study of Mus musculus with 6 samples.

Results

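The mitosis, spindle and kinetochore genes are a list of 53 genes that act in cell division, from entry into mitosis to cytokinesis. They were found on the arrays by gene symbol, through probe sets (groups of short probes for one transcript) that the probe table assigns to a single gene. This gave 52 of the 53 genes among 18193 genes in all. Ccnb1 was not analysed here. A gene with several probe sets was represented by the one with the highest mean log2(intensity + 16) over the 6 arrays.

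The samples were Lgr5+ intestinal stem cells, sorted for high GFP from small intestine of mice that carry Lgr5-EGFP-IRES-creERT2, an allele that places EGFP and CreERT2 under the control of the stem cell gene Lgr5. Both groups carry this allele. One group of 3 mice received vehicle (DMSO) and the other group of 3 mice received DBZ, an inhibitor of gamma-secretase, the protease that cuts Notch receptors so that they can signal, and cells were collected after 24 h. Total RNA of 1 mouse went on each array. The titles call the arrays biological replicates and were used for the grouping, whereas another label field gives DMSO for every array. Mouse age is not given in the sources used here. The unit of the DBZ dose has probably lost a prefix in the labels, so no dose is given. The comparison asks how division genes stood in stem cells 24 h after the protease was inhibited.

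Cyclin-dependent kinase 1 drives cells into mitosis once cyclin A and cyclin B have built up and CDC25 phosphatases have removed its inhibitory phosphates. Kinetochores then attach chromosomes to the spindle, a checkpoint holds back anaphase until all are attached, and the anaphase-promoting complex ends mitosis by destroying cyclin B and securin. Most of these genes are transcribed in G2 and mitosis, and Lgr5+ cells of the crypt base and their transit-amplifying daughters are dividing cells. Each array measured all sorted cells together, so fewer dividing cells and less RNA per dividing cell cannot be told apart.

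Most mitosis genes did not pass the test 24 h after DBZ. Of the 52 measured, 1 rose and 2 fell (limma, two-sided, Benjamini-Hochberg adjusted p under 0.05 over all genes). Of all genes tested 5.34% passed, 3.82% higher and 1.52% lower. Cdc25b, a phosphatase that activates cyclin-dependent kinases, rose 1.89-fold on the log2(intensity + 16) scale. Pttg1, which encodes securin, fell to 0.659 and Cenph, which encodes an inner kinetochore protein, to 0.644 of the vehicle level on the same scale. The other 49 lay between a log2 difference of -0.66 (Ncaph) and 0.21 (Ube2c). The 95% interval lay within a 2-fold change in either direction for 48 of 52 members and within 1.5-fold for 25. The exceptions to the first limit were Ccna2, Cdca8, Ncaph and Cdc25b.

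**Figure D1:**
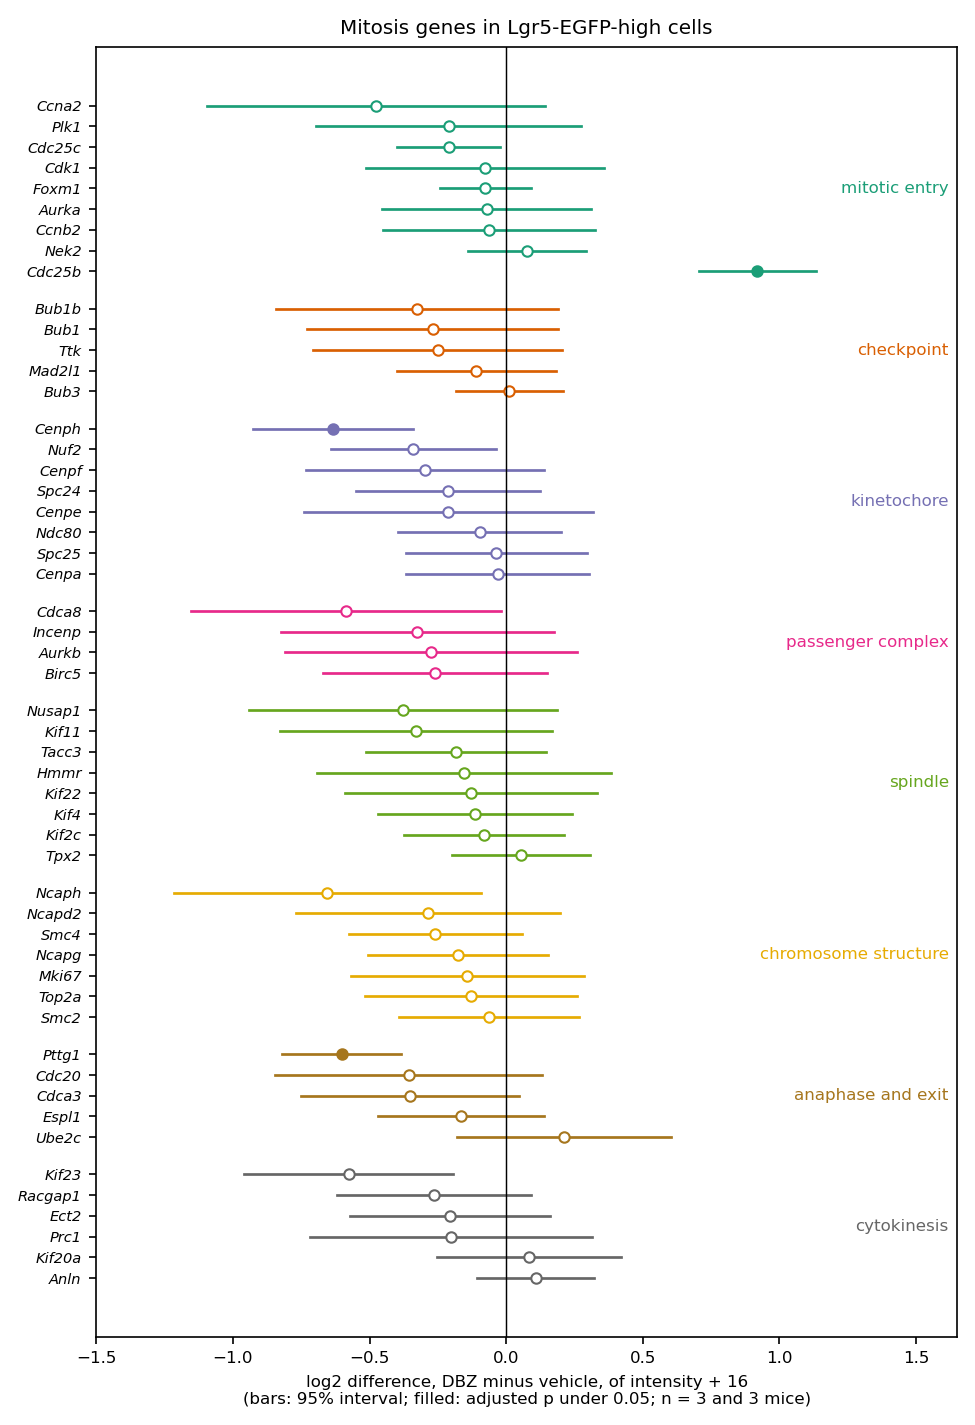
The plot of log2 differences gives each of the 52 mitosis genes as a point with its 95% interval (limma, n = 3 and 3 mice), grouped by role, with filled points past the adjusted threshold. Cdc25b stands alone on the right at 0.92, Cenph and Pttg1 are filled on the left, and 45 of 52 points lie below 0.

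Many members share promoter letters that the choice of members did not use. The cell cycle genes homology region (CHR) is bound by the MuvB complex with MYBL2 and FOXM1, the CCAAT box is bound by NF-Y, and E2F sites are bound by E2F factors. RefSeq promoter windows (GRCm38.p6) of 250 bases before and 50 after the annotated start were searched on both strands for TTTGAA or TTCGAA (CHR), CCAAT, and TTNNCGC (E2F). Windows were found for 44 of the 53 listed genes, and not for Ccna2, Aurkb, Tpx2, Spc24, Cdc25c, Kif20a, Incenp, Smc4 and Foxm1. CHR letters were present in 33 of the 44 genes (75.0%), against 21.7% of 27025 genes with a window. CCAAT letters were present in 34 (77.3%), against 41.1%, and both together in 30 (68.2%), against 9.65%. E2F letters were present in 22 (50%), against 22.6%. In the 88 other mitosis genes with a window the shares were 50% for CHR, 56.8% for CCAAT, 30.7% for both together and 45.5% for E2F. In S phase genes the order differed, with CHR letters in 19.4% and E2F letters in 86.1% of 36 genes. A match describes letters in a window and does not show binding.

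**Figure D2:**
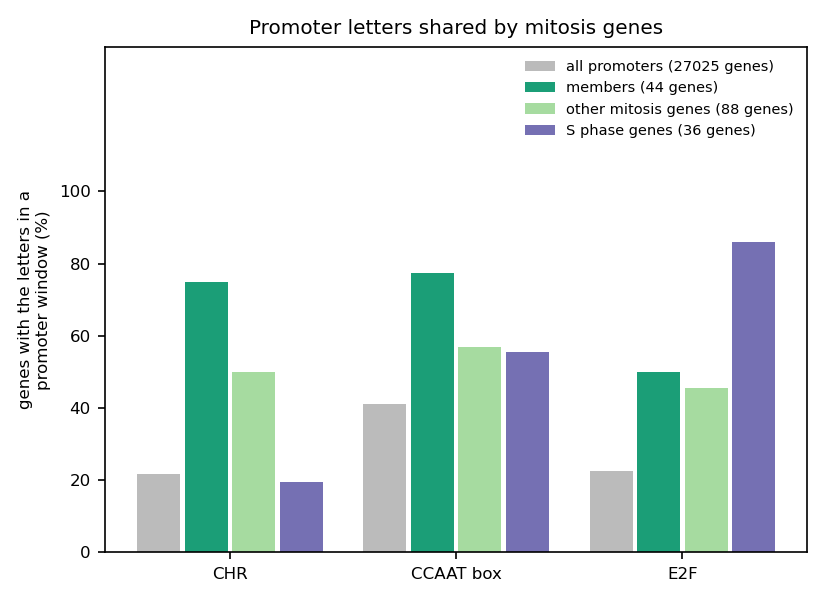
The bars give the percentage of genes with CHR, CCAAT or E2F letters in a promoter window, for all promoters (grey), the members (dark green), the other mitosis genes (light green) and the S phase genes (purple). The members stand at 75.0% for CHR and 77.3% for CCAAT, the other mitosis genes at 50% and 56.8%, and the S phase genes at 86.1% for E2F.

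The 250 bases before the start are shown for the 3 genes that passed the test, and for Cdk1 and Ccnb2 as members that did not pass and hold both kinds of letters. They run 5′ to 3′ on the gene's strand, with CHR and CCAAT letters (ATTGG on the other strand) in capitals. They come from RefSeq, build GRCm38.p6, at chr2:131186698-131186947 on the plus strand (Cdc25b), chr11:43425982-43426231 on the minus strand (Pttg1), chr13:100775900-100776149 on the minus strand (Cenph), chr10:69352913-69353162 on the minus strand (Cdk1) and chr9:70421555-70421804 on the minus strand (Ccnb2).
Cdc25b: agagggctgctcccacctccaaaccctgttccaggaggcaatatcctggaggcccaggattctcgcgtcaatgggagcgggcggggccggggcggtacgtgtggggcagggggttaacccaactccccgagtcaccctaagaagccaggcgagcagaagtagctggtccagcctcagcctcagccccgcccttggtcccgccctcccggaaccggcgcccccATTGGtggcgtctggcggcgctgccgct
Pttg1: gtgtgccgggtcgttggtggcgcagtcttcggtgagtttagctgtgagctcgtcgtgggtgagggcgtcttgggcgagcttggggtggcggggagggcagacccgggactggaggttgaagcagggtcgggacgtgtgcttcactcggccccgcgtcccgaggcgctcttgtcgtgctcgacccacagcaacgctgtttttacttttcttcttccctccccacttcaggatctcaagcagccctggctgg
Cenph: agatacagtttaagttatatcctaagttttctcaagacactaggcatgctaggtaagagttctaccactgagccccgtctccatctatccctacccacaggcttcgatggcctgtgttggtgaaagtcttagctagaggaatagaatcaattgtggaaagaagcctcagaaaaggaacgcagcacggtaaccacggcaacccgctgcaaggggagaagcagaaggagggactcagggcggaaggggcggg
Cdk1: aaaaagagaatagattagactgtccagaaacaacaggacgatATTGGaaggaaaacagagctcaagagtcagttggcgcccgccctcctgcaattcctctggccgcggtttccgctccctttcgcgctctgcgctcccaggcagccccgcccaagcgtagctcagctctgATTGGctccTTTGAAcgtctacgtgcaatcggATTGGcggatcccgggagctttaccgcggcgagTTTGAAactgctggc
Ccnb2: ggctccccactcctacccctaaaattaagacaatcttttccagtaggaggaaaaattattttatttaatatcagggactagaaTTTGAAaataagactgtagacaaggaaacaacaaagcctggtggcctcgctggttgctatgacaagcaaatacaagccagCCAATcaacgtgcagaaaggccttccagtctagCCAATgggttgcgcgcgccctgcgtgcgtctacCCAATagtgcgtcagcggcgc
Cdk1 held 2 CHR matches and 3 CCAAT matches before its start. Ccnb2 held 3 CCAAT matches and 1 CHR match there, with another CHR match after the start. Cdc25b held 1 CCAAT match before the start and a CHR match after it. Pttg1 held no match of either kind in its window, and Cenph held 1 CCAAT match, after the start. The median log2 difference was -0.15 for the 33 measured members with CHR letters and -0.30 for the 10 without. It was -0.18 with and -0.22 without CCAAT letters, and -0.18 with and -0.17 without E2F letters. These values are given as a description only.

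Regulators of mitotic entry held the one gene that rose. Cdc25b stood at 174, 159 and 159 intensity units in vehicle replicates 1, 2 and 3 and at 357, 326 and 292 in DBZ replicates 1, 2 and 3. Every DBZ array was above every vehicle array, and the means were 164 ± 9.12 and 325 ± 32.6 (SD, n = 3). The log2 difference was 0.92 ± 0.09 (SE; limma, Benjamini-Hochberg adjusted p = 0.0146). The size held between 0.85 and 0.99 when each array was left out in turn, while the call ended without vehicle replicate 1, 2 or 3 (limma, adjusted p = 0.056, 0.076 and 0.074) and with the ordinary t statistic (0.11). Over all alternatives the adjusted p lay between 0.0026 and 0.11 (limma). Cdc25b has 1 single-symbol probe set, so no other probe set checks it.

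Cdc25c, a phosphatase of the same family that acts on cyclin-dependent kinase 1 at mitotic entry, pointed the other way without passing. Its intensities were 77.2, 72.5 and 75.7 in vehicle and 62.1, 70.1 and 56.6 in DBZ arrays. The groups did not overlap, and the log2 difference was -0.21 ± 0.08 (SE, n = 3; limma, Benjamini-Hochberg adjusted p = 0.16). Its other probe set was at -0.07.

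The kinases and cyclins of mitotic entry overlapped between the groups. Cdk1, the kinase itself, stood at 687, 599 and 724 in vehicle and at 605, 821 and 506 in DBZ arrays. The DBZ arrays held both the highest and the lowest of the 6 values, and the log2 difference was -0.08, with a 95% interval of -0.51 to 0.36. Plk1, a kinase of mitotic entry and spindle assembly, had 307, 221 and 269.8 in vehicle and 250.5, 273 and 167 in DBZ arrays (-0.21 ± 0.20). Aurka, the centrosomal Aurora kinase, had 198, 173 and 180.1 in vehicle and 181, 214 and 135 in DBZ arrays (-0.07 ± 0.16). Foxm1, the transcription factor of G2 and mitosis genes, lay close together in all 6 arrays, at 157, 162 and 142 in vehicle and 139.6, 148 and 148 in DBZ arrays (-0.08 ± 0.07). Its dimmer probe sets were at -0.18, -0.20 and -0.04. The groups did not overlap in those at -0.18 and -0.04, the latter at only 10.5 to 11.4 units, far below the array medians. Ccna2, cyclin A2, was at -0.48 ± 0.25 (SE, n = 3; limma, Benjamini-Hochberg adjusted p = 0.30), with another probe set at 0.03. Ccnb2, a B cyclin, and Nek2, a centrosome kinase, lay at -0.06 and 0.08. The dimmer probe sets of Nek2 were at -0.16, -0.19 and 0.06. Of the 9 measured entry genes 1 rose and 0 fell, with a median of -0.08.

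**Figure D3:**
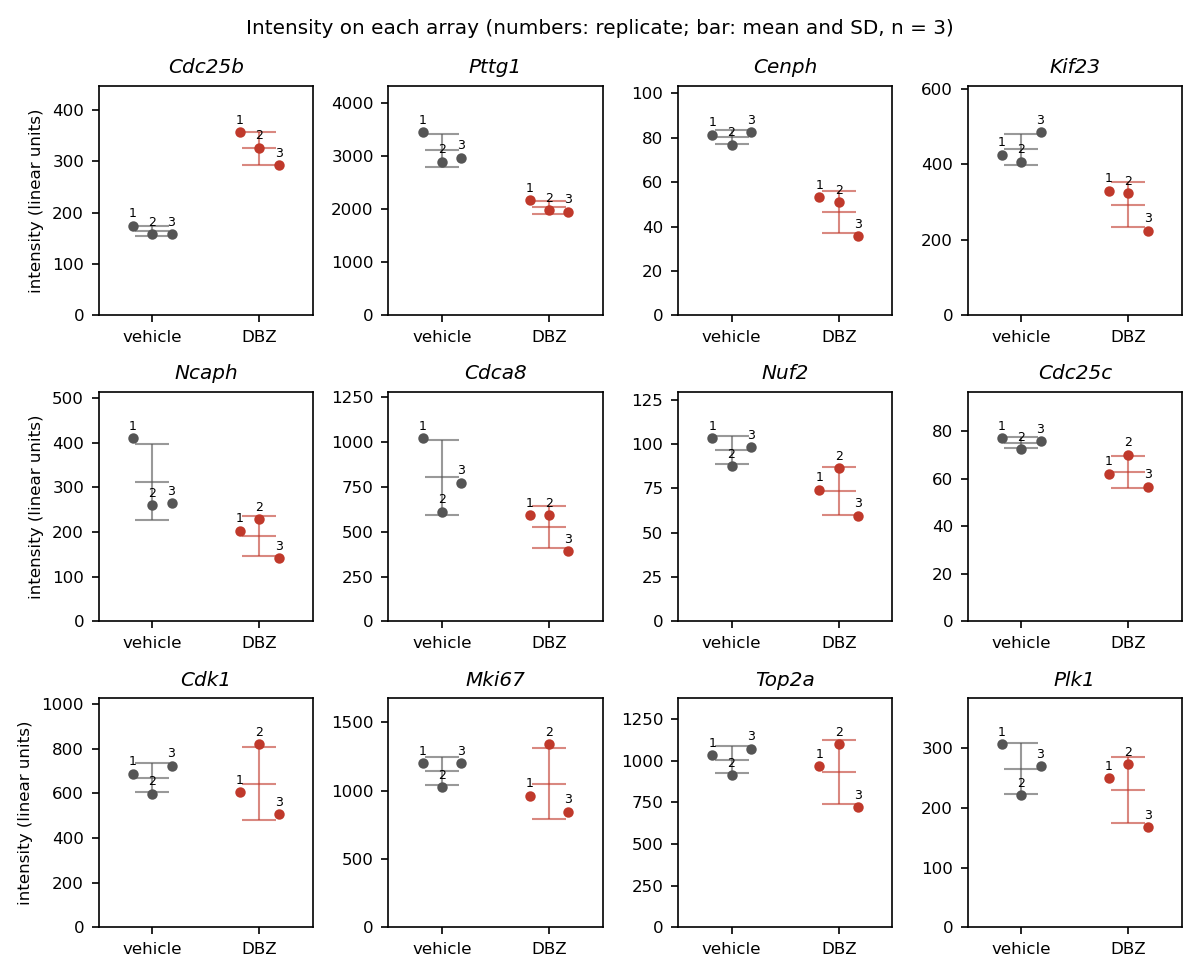
The panels give the linear intensity of 12 mitosis genes on each array, numbered by replicate, with the mean and SD of the 3 vehicle (grey) and 3 DBZ (red) mice. The groups are apart for the 8 genes from Cdc25b to Cdc25c and overlap for Cdk1, Mki67, Top2a and Plk1, where DBZ replicate 3 is the lowest point.

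Kinetochore genes included one that fell. Cenph, a subunit of the constitutive centromere complex on which the kinetochore is built, stood at 81.4, 76.9 and 82.6 in vehicle and at 53.2, 50.9 and 35.6 in DBZ arrays. The groups did not overlap, with means of 80.3 ± 3.02 and 46.5 ± 9.56 (SD, n = 3), the latter near the array medians of 44.9 to 46.3. The log2 difference was -0.63 ± 0.12 (SE; limma, Benjamini-Hochberg adjusted p = 0.0445). This call was close to the threshold and ended without vehicle replicate 1, 2 or 3 or DBZ replicate 2 (limma, adjusted p = 0.13, 0.12, 0.13 and 0.083), with a pseudocount of 64 (0.058) and with the ordinary t statistic (0.17). Over all alternatives it lay between 0.014 and 0.17. Cenph has 1 single-symbol probe set. Its mean level was below that of the median gene, so the setting with only brighter genes did not include it.

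Nuf2, a subunit of the NDC80 complex that binds microtubules, was also apart between the groups, at 103, 87.7 and 98.4 in vehicle and 74.3, 86.6 and 59.5 in DBZ arrays. It did not pass (-0.34 ± 0.12; limma, Benjamini-Hochberg adjusted p = 0.15, n = 3). Its partners in the same complex, Ndc80, Spc24 and Spc25, lay between -0.21 and -0.04, and their groups overlapped. Cenpa, the histone H3 variant that marks centromeres, was at -0.03 ± 0.14, and Cenpe, a kinetochore motor, and Cenpf, a large kinetochore protein, lay at -0.21 and -0.30. Of 8 kinetochore genes 0 rose and 1 fell, all 8 were negative, and the median was -0.21.

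Among anaphase and mitotic exit genes Pttg1 fell. Securin, its product, keeps separase inactive until anaphase. Pttg1 stood at 3451, 2892 and 2966 in vehicle and at 2171, 1978 and 1952 in DBZ arrays. All 3 DBZ arrays lay below all vehicle arrays and close to each other, with means of 3103 ± 304 and 2034 ± 119 (SD, n = 3). The log2 difference was -0.60 ± 0.09 (SE; limma, Benjamini-Hochberg adjusted p = 0.0291). The other probe sets of Pttg1 were at -0.29 and -0.36. In the one at -0.29 the groups did not overlap. In the one at -0.36 they did, with 596, 843 and 807 in vehicle and 663, 520 and 550 in DBZ arrays. That probe set was chosen when those marked _s_at or _x_at were left out, and with it the gene did not pass (limma, adjusted p = 0.22). The call also ended without vehicle replicate 1, 2 or 3 and without DBZ replicate 2 or 3 (limma, adjusted p = 0.074, 0.094, 0.097, 0.076 and 0.062) and with the ordinary t statistic (0.16). Over all alternatives it lay between 0.0090 and 0.22.

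The other 4 exit genes overlapped between the groups. Cdc20, the activator of the anaphase-promoting complex, was at -0.36 ± 0.20 (SE, n = 3), and Cdca3, which takes part in destroying the WEE1 kinase, at -0.35 ± 0.16. Espl1, which encodes separase, lay at -0.17. Ube2c, the ubiquitin-conjugating enzyme of the complex, was at 0.21, the highest value after Cdc25b. For this set 0 rose and 1 fell, and the median was -0.35.

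No member of the spindle assembly checkpoint passed. Bub1 and Bub1b, kinetochore-bound checkpoint proteins, were at -0.27 ± 0.19 and -0.33 ± 0.21 (SE, n = 3), and the range ended with Bub3 at 0.01. In this set of 5 the lowest of the 6 values was that of DBZ replicate 3 for every gene, and the median was -0.25. That array was the lowest for 86.5% of the 52 members and 28.7% of all genes.

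The chromosomal passenger complex corrects wrong spindle attachments and later directs cytokinesis, and 0 of its 4 genes passed. Cdca8, which encodes borealin, stood at 1022, 610.5 and 772 in vehicle and at 593, 592 and 393 in DBZ arrays. The groups were apart by a small gap, between vehicle replicate 2 and DBZ replicate 1, and the log2 difference was -0.59 ± 0.23 (SE, n = 3; limma, Benjamini-Hochberg adjusted p = 0.18). The other probe sets of Cdca8 were at -0.12 and -0.21. Aurkb, the kinase of the complex, was at -0.28 ± 0.22, Birc5, which encodes survivin, at -0.26 ± 0.17 and the scaffold gene Incenp at -0.32 ± 0.21.

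Condensin and chromosome genes were negative in 7 of 7 cases with 0 past the test. Ncaph, a condensin I subunit, had the largest negative difference of all members at -0.66 ± 0.23 (SE, n = 3; limma, Benjamini-Hochberg adjusted p = 0.14). Its intensities were 411, 259.8 and 265 in vehicle and 203, 229 and 141 in DBZ arrays, with vehicle replicate 1 far above the other two. A further probe set of Ncaph was at -0.48. Mki67, the marker of dividing cells, stood at 1199.6, 1024 and 1202 in vehicle and 963, 1342 and 846 in DBZ arrays. The log2 difference of Mki67 was -0.14 ± 0.18, with an interval of -0.57 to 0.28, and the DBZ arrays lay on both sides of the vehicle range. Top2a, the topoisomerase that untangles sister chromatids, had 1034, 916 and 1074 in vehicle and 969, 1102 and 724 in DBZ arrays (-0.13 ± 0.16). The median of the set was -0.18.

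No spindle motor or assembly factor passed. Nusap1, a microtubule-bundling protein, was lowest at -0.38 ± 0.23 (SE, n = 3) and Tpx2, which activates Aurora A on the spindle, highest at 0.05. The dimmer probe sets of Tpx2 were all negative, at -0.33, -0.32 and -0.13. Kif11, the motor that separates the spindle poles, was at -0.33 ± 0.21. Of the 8 genes 7 were negative, and the median was -0.14.

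In the cytokinesis set Kif23, a motor of the central spindle, came nearest to the threshold. It stood at 426, 407 and 486 in vehicle and at 330.1, 325 and 225 in DBZ arrays. The groups did not overlap, and the log2 difference was -0.58 ± 0.16 (SE, n = 3; limma, Benjamini-Hochberg adjusted p = 0.085; range over all alternatives 0.036 to 0.22). Its partner in centralspindlin, Racgap1, was at -0.26, with another probe set at -0.63 whose groups did not overlap, and Anln, an actin-binding scaffold of the cleavage furrow, was highest at 0.11. None of 6 passed, and the median was -0.20.

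Across roles most members lay below 0, and 2 of these passed the test. Of 52 members 45 were negative (86.5%), with a median of -0.20, beside 54.6% and a median of -0.02 over all 18193 genes. An unadjusted p under 0.05 was reached by 8 members, 7 lower and 1 higher (limma, n = 3), where 26.3% of all genes reached it, 11.3% lower and 15.1% higher. The groups did not overlap for 8 members, 7 of them lower in DBZ, where 33.2% of all genes did not overlap, 15.8% with DBZ lower. With 5 arrays the count without overlap was 19 (36.5%) without vehicle replicate 2, against 43.5% of all genes, and 23 (44.2%) without DBZ replicate 2, against 43.2%. It was 8 (15.4%) and 9 (17.3%) without vehicle replicate 1 or 3, against 42.9% and 41.7% of all genes. Leaving out DBZ replicate 1 or 3 gave 11 (21.2%) and 9 (17.3%), against 46.9% and 38.4%. Without vehicle replicate 1, 2 or 3 no member passed, without DBZ replicate 2 only Cdc25b did, and without DBZ replicate 3 the 2 that passed were Cdc25b and Cenph (limma, Benjamini-Hochberg adjusted p under 0.05).

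The shift was largest in DBZ replicate 3. Its value was the lowest of the 6 arrays for 45 of 52 members (86.5%), against 28.7% of all genes. It was also the lowest for 83.7% of the S phase genes and 62.3% of the other mitosis genes. Taken by array, the median difference of the members from their vehicle mean was -0.14 in DBZ replicate 1, 0.05 in DBZ replicate 2 and -0.47 in DBZ replicate 3. In vehicle replicates 1, 2 and 3 it was 0.09, -0.14 and 0.04, so DBZ replicate 1 lay near vehicle replicate 2. DBZ replicate 3 had 45 members below the vehicle range (86.5%, against 39.2% of all genes) and 2 above it. DBZ replicate 1 had 23 below (44.2%, against 30.4%) and 2 above. DBZ replicate 2 had 9 below (17.3%, against 31.7%) and 17 above (32.7%), near the 30.8% of all genes above. The median SD on the log2 scale was 0.26 among DBZ and 0.131 among vehicle arrays, against 0.103 and 0.104 over all genes. For the S phase genes it was 0.262 and 0.124. Without DBZ replicate 3 the median log2 difference of the members was -0.04, with 34 of 52 negative. It was -0.32 without DBZ replicate 2, -0.12 without vehicle replicate 1 and -0.07 with array weights, which downweight arrays that deviate.

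**Figure D4:**
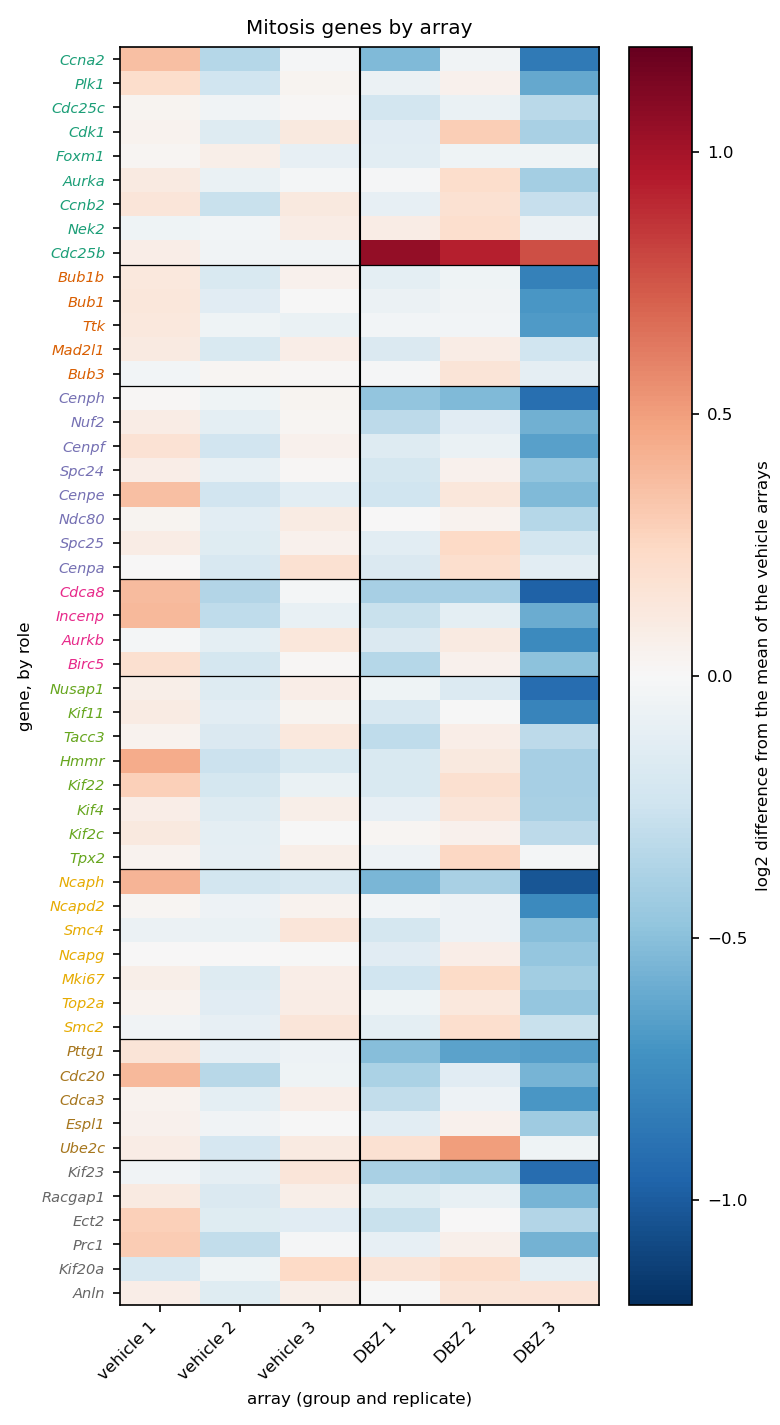
The heat map gives each mitosis gene (rows, by role) on each array (columns) as the log2 difference from its mean over the 3 vehicle arrays, red for higher and blue for lower. DBZ replicate 3 is blue for most rows and DBZ replicate 2 mostly pale or red, while Cdc25b is red in all 3 DBZ arrays and Pttg1 and Cenph are blue in all 3.

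Markers of other cells moved between the same arrays. Stem cell and epithelium markers were present in every array, with Lgr5 at 204 to 271 under vehicle and 209 to 242 under DBZ, and Epcam at 16997 or more. The 12 stem cell genes divided, with Rgmb (0.79 ± 0.09) and Sox9 (0.72 ± 0.10) higher, Aqp4 (-1.37 ± 0.16) and Ascl2 (-1.03 ± 0.13) lower and the other 8 not past the test (SE, n = 3; limma, Benjamini-Hochberg adjusted p = 0.022, 0.027, 0.022 and 0.025 in that order). Their sum was 6736 to 8384 under vehicle and 8681 to 9629 under DBZ. Olfm4, a stem cell marker outside this list, had the lowest log2 difference of all 18193 genes, at -6.63. Of 12 fibroblast and smooth muscle genes 8 rose and 0 fell, and the vehicle arrays summed to 20827 to 30497 against 45436 to 52754 for DBZ. The sums of 8 goblet genes (108693 to 116568 and 135082 to 166862), 9 enteroendocrine genes (4653 to 5567 and 7076 to 21095), 7 neutrophil and macrophage genes (4022 to 4568 and 4741 to 12126), 3 adipocyte genes (1227 to 2647 and 4270 to 10154) and 6 endothelial genes (513 to 590 and 720 to 805) were also higher in every DBZ array, and in these lists 3, 2, 3, 1 and 2 genes rose. In the 6 lists of fibroblast and smooth muscle, goblet, enteroendocrine, neutrophil and macrophage, adipocyte and endothelial genes the highest sum was in DBZ replicate 3. The sum of 7 enterocyte genes was lower in every DBZ array (45605 to 53189 against 53773 to 57477), and the sums of Paneth, tuft and lymphocyte genes overlapped. Of the 5 Paneth genes Mmp7 (1.37 ± 0.23) and Pla2g2a (2.18 ± 0.39) rose, and Ang4 was at -2.70 ± 0.66 without passing (SE, n = 3; limma, Benjamini-Hochberg adjusted p = 0.034, 0.038 and 0.068), while 0 tuft, lymphocyte or enterocyte genes passed. No listed marker was at 0, and the neutrophil gene S100a8 had 16.9 to 24.0 under vehicle, below the array medians, against 308 to 2746 under DBZ. Actin control probes, whose 3′ to 5′ ratio reflects how intact the RNA was, gave 2.22, 1.61 and 1.69 for vehicle and 1.53, 1.51 and 1.57 for DBZ. Gapdh control probes gave ratios of 1.42, 1.11 and 1.07 for vehicle and 1.05, 1.095 and 1.08 for DBZ. Vehicle replicate 1 had the highest ratio with both controls. It was the highest vehicle array for 32 of 52 members, against 7210 of 18193 genes. The part of these markers and ratios in the values of the mitosis genes was not tested.

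Among genes of mitosis outside the member list, of 106 measured, from kinesins to anaphase-promoting complex and cohesin subunits, 0 rose and 1 fell, with a median of -0.16. The gene was Cenpk, a subunit of the same centromere complex as Cenph, at 306, 229 and 259 in vehicle and 137, 178 and 118 in DBZ arrays. Its groups did not overlap, and the log2 difference was -0.82 ± 0.16 (SE, n = 3; limma, Benjamini-Hochberg adjusted p = 0.048). That complex was looked at after Cenph and Cenpk had been seen, and 11 of its genes outside the member list were measured. Of these 0 rose and Cenpk fell, 9 were negative, 4 had groups that did not overlap with DBZ lower, and the median was -0.21. Each of these counts of lower genes includes Cenpk, whose own result prompted the look. Over all genes 1.52% fell, 54.6% were negative and 15.8% had groups that did not overlap with DBZ lower. Cenpp was at -0.73 ± 0.19, Cenpm at -0.30 ± 0.11, Cenpi at 0.01 ± 0.14 and Cenpq at 0.26 ± 0.19, and none of these passed (SE, n = 3; limma, Benjamini-Hochberg adjusted p = 0.074, 0.14, 0.98 and 0.42). The count of 1 was 0 without any of the vehicle arrays or DBZ replicate 2, and 7 without DBZ replicate 1.

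DNA replication and S phase genes, which act before mitosis, are given beside the mitosis genes. Of 43 measured 9 fell and 0 rose, with a median of -0.51, and 25 had groups that did not overlap, all lower in DBZ. Over all genes 1.52% fell, and 15.8% had groups that did not overlap with DBZ lower. Gins2 and Gins1 of the replicative helicase were at -0.84 ± 0.10 and -0.82 ± 0.11, and Pold1, the catalytic subunit of polymerase delta, at -0.97 ± 0.15 (SE, n = 3; limma, Benjamini-Hochberg adjusted p = 0.022, 0.027 and 0.031). Their medians by array were -0.52, -0.25 and -0.75 in DBZ replicates 1, 2 and 3, where the mitosis genes had -0.14, 0.05 and -0.47. Among the DBZ arrays both medians were highest in replicate 2 and lowest in replicate 3. No S phase gene passed without vehicle replicate 1, 2 or 3 (limma). The difference between the lists was not tested.

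**Figure D5:**
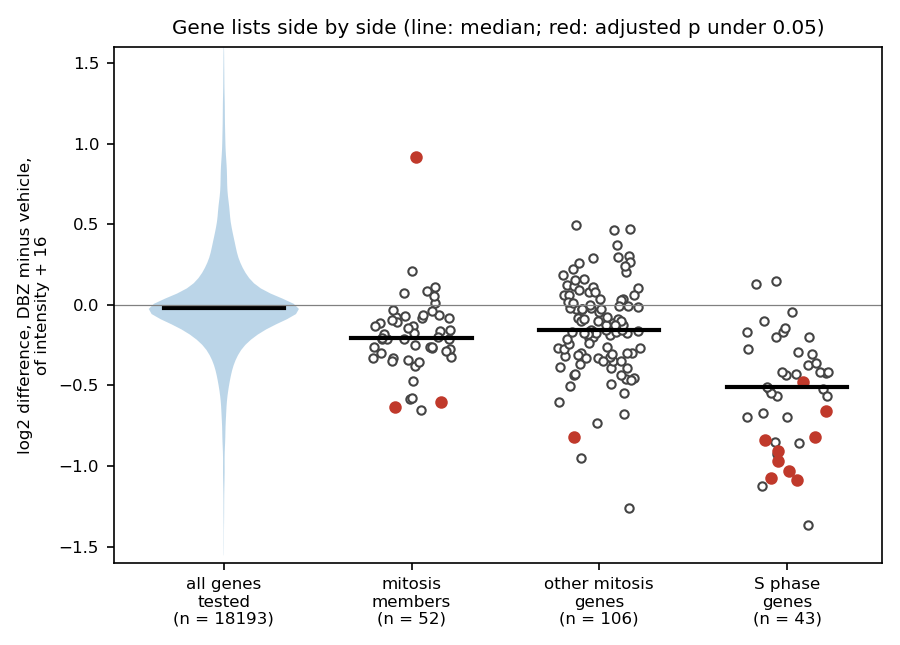
The plot sets the log2 differences of all genes (violin, 143 genes beyond 1.6 in either direction not drawn) beside the mitosis members, the other mitosis genes and the S phase genes, with 1 point per gene, the median as a line and genes past the adjusted threshold in red. The medians are -0.02, -0.20, -0.16 and -0.51.

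Over all genes DBZ changed 972 of 18193, of which 71.5% were higher, or 60.2% after quantile normalization and 57.9% after centring on array medians. The count was 49, 19 and 38 without vehicle replicate 1, 2 or 3, and 2032, 217 and 352 without DBZ replicate 1, 2 or 3. The members' split of 1 higher and 2 lower was the same with both scalings.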

How the data were processed

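Total RNA from sorted Lgr5+ cells of 3 vehicle and 3 DBZ mice was amplified and labelled with a 3′ IVT kit and hybridised to Affymetrix arrays, per the labels' protocols. The authors deposited 1 linear intensity per probe set and array, with array medians of 44.9 to 46.3. Which software, background correction and normalization they used is not given in the sources used here. With 3 arrays a group, precision is limited by their number.

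Of 45101 probe sets 34945 carried a single gene symbol, 932 several and 9160 none, and 64 were array controls. Genes were tested on log2(intensity + 16) with limma 3.58.1 in R 4.3.3 (lmFit, eBayes, two-sided), with Benjamini-Hochberg adjustment over 18193 genes. The added 16 makes folds of dim genes smaller. SE is the moderated standard error. An exact permutation test of 1 value cannot go below p = 0.1 here. Alternatives were other scalings, pseudocounts, probe sets, filters, variance models, thresholds, a replicate block and leaving out arrays.

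Members and lists were chosen with earlier results of these data known. Full values were set to be given for members with an unadjusted p under 0.05, an absolute log2 difference of at least 0.3 or a place among 12 fixed genes, and the extremes of each role were named too. Values of a few further members were added after they were seen.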

Additional observations from a re-analysis of the deposited data

How the results depend on the processing

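Over 12 alternative settings and 6 arrays left out in turn, 35 of 52 members kept one sign, and Cdc25b, Pttg1, Cenph and Kif23 were the 4 members that crossed the threshold in at least one. The count of 3 members past the threshold was 0 with ordinary t statistics and 0 to 3 with an array left out. The median of the members (-0.20) was -0.32 to -0.04 with an array left out and below 0 in every other setting run. The count without overlap was 8 to 23 with an array left out (15.4% to 44.2%, against 38.4% to 46.9% of all genes). It was 5 among the 45 brighter members, where the share over all brighter genes was not taken.

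The 972 changed genes became 440 with a pseudocount of 64, 2690 with array weights, 2575 at a threshold of 0.1, 0 with ordinary t statistics and 19 to 2032 with an array left out. At an unadjusted p under 0.05 limma had 4790. The 1 other mitosis gene became 4 after centring, 5 and 0 with pseudocounts of 1 and 64, 4 among brighter genes, 3 with the mean of probe sets, 2 without _x_at and _s_at probe sets, 6 with trend and robust, 14 with array weights, 14 at a threshold of 0.1, 0 with ordinary t statistics and 0 to 7 with an array left out. The 9 S phase genes became 4 with a pseudocount of 64, 14 among brighter genes, 5 with either other choice of probe set, 15 with trend and robust, 15 with array weights, 18 at a threshold of 0.1, 0 with ordinary t statistics and 0 to 8 with an array left out.

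No member that changed sign was past the threshold. After quantile normalization Bub3, Nek2 and Tpx2 were at -0.042, -0.0039 and -0.020, and after centring Bub3 at -0.028. With the mean of probe sets Kif22, Nek2 and Tpx2 were at 0.031, -0.055 and -0.18, and without _x_at and _s_at probe sets Kif22 and Nek2 at 0.14 and -0.16. With array weights Aurka, Ccnb2, Cdk1, Cenpe, Hmmr, Kif22 and Spc25 were at 0.074, 0.0099, 0.032, 0.041, 0.10, 0.081 and 0.066. With an array left out the ranges were -0.058 to 0.071 (Bub3), -0.20 to 0.043 (Ccnb2), -0.29 to 0.070 (Hmmr), -0.012 to 0.20 (Kif20a), -0.29 to 0.015 (Kif22), -0.17 to 0.057 (Spc25), -0.044 to 0.11 (Tpx2), -0.15 to 0.060 (Cenpa), -0.19 to 0.041 (Smc2), -0.21 to 0.095 (Aurka), -0.26 to 0.076 (Cdk1), -0.15 to 0.037 (Kif2c), -0.24 to 0.023 (Kif4), -0.17 to 0.026 (Ndc80) and -0.26 to 0.038 (Top2a).

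Kif23 passed with array weights and at a threshold of 0.1. Replicate numbers are shared by the groups, but deviations of same-numbered arrays correlated at -0.009, 0.246 and 0.200 across genes, so the numbers were not taken to pair the mice. With the replicate block 889 genes and 2 members passed, and Cenph did not (limma, adjusted p = 0.062). The causes of these changes were not tested.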
